A study of Homo sapiens with 9 samples.

Results

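The 10 genes described here encode enzymes and a transporter that are widely used as readouts of the transcription factor NRF2: GCLC, GCLM, SLC7A11, TXNRD1, SRXN1, NQO1, AKR1C1, AKR1C2, AKR1C3 and AKR1B10. The rule lists them by name, and each matched 1 of the 78894 gene identifiers in the deposited tables. All 10 were among the 17100 genes that entered the tests, a gene being tested where its value was at least 1 TPM in at least 2 distinct libraries. TPM is a transcript's share of its library, corrected for length.

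The cells were CAL27, an established line derived from a tongue squamous carcinoma, grown without any treatment. Polyadenylated RNA was sequenced from 3 libraries of cells labelled Control and from CRISPR knockout cells named A2ko, A8ko and C9ko, each with a pair of files. The study concerns an enhancer in head and neck carcinoma, but the labels name neither the edited sequence nor say whether a knockout group is a clone or a pool. The level of the edited target could therefore not be reported. Both A2ko files were the same at every identifier, as were both A8ko files, and each pair was counted once, so n was 3 for Control, 2 for C9ko and 1 each for A2ko and A8ko.

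NRF2, encoded by NFE2L2, is held at a low level in unstressed cells by KEAP1, which passes it to a CUL3 ubiquitin ligase for degradation. When reactive electrophiles or oxidants modify KEAP1, NRF2 accumulates, pairs with a small MAF protein and binds antioxidant response elements near genes for glutathione synthesis, the thioredoxin system and the reduction of quinones and aldehydes. Squamous carcinomas often carry mutations in this pathway, and BACH1 competes with NRF2 for the same sites.

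The element is commonly written TGACNNNGC, where N is any base. It was searched on both strands in RefSeq promoters of build GRCh38.p14, taken from 250 bases before to 50 bases after each start, and 13.3% of 35116 such promoters held it. Of the members, 8 had a promoter entry, and the motif lay in those of GCLM and TXNRD1. These 8 genes had 10 promoters, of which 3 held it. In the list of 30 other NRF2 targets used below, 8 of the 19 genes with an entry held it. The 13.3% counts promoters, whereas a gene counted here if any of its promoters held the motif, so the shares are not alike. A match is a match of letters only, and no binding was measured here. The matches in both members are shown with those of 2 other NRF2 targets and 1 of the 2 of KEAP1, whose expression is described below; the motif is in capitals, and each line reads 5′ to 3′ on the strand that carries it.
GCLM: tggaagacaaTGACTAAGCagaaatcgta
TXNRD1, upstream start: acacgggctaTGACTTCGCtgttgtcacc
TXNRD1, upstream start, other strand: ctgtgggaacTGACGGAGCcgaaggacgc
TXNRD1, downstream start: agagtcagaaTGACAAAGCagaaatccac
GPX2: atccccaggaTGACTTAGCaaaaacaggt
PIR: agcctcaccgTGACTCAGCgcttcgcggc
KEAP1: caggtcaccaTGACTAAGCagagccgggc
The GCLM stretch lies at chr1:93909446-93909474, and the TXNRD1 stretches lie at chr12:104215670-104215698, chr12:104215761-104215789 and chr12:104286920-104286948. The GPX2 stretch is chr14:64942849-64942877, that of PIR chrX:15493289-15493317 and that of KEAP1 chr19:10502784-10502812. GCLM, GPX2, PIR and KEAP1 are transcribed from the minus strand and are shown on the plus strand, while the TXNRD1 stretches marked other strand and downstream start are on the minus strand of a plus-strand gene.

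Knockouts were compared with Control on the log2(TPM + 1) scale, and all comparisons share the same Control libraries. C9ko, with 2 libraries, was tested with limma in a fit of all 4 groups, and a gene was called at a Benjamini-Hochberg adjusted p under 0.05. For what the knockouts have in common, each knockout group entered as its mean, and these 3 values were tested against the 3 Control libraries in the same way. With 1 library, A2ko and A8ko had no test: a gene was counted where it was above or below every Control value and its distance to the Control mean was at least 1 log2 unit. The labels do not say that libraries came from separate cultures, so p-values measure only the spread between these libraries. In bulk RNA, fewer cells that make a transcript and less of it per cell cannot be told apart.

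The libraries carried the markers of their origin, with all 10 squamous epithelial markers at 1 TPM or more in each. The summed level of those markers was 16690 to 17790 TPM in Control, 6758 in A2ko, 8012 in A8ko and 10430 to 10570 in C9ko. A sum gives most weight to the most abundant markers. Taken gene by gene, the C9ko libraries had a median log2 difference of 0.06 over the list. Of the 10 markers, 4 were called lower there, 1 was called higher and 5 were not called. The corresponding medians were -0.68 (A2ko) and -0.58 (A8ko). Of 10 markers of leukocytes, endothelium, fibroblasts and smooth muscle, CD68 and COL1A1 reached 1 TPM, and the list summed to between 23.1 and 73.2 TPM. COL3A1 was at 0 in every library. Mitochondrially encoded transcripts made up 23.1% to 26.9% of the Control values, 25.2% in A2ko, 20.6% in A8ko and 17.9% to 20.2% in C9ko. Without mitochondrially encoded genes, the median log2 difference of all genes in C9ko was 0.02 and not 0.11. In C9ko 6 members were then called, TXNRD1 higher and GCLC, AKR1C1, AKR1C2, AKR1C3 and SLC7A11 lower. Of 17063 tested genes 4777 were called in that fit, 2899 higher and 1878 lower. Whether the differences in markers or in mitochondrial share cause results below was not tested. TPM keeps no record of depth, so the depth is unknown.

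In C9ko, 5 of the 10 members were called, against a background of 29.5% of all tested genes. SLC7A11, AKR1C2 and AKR1C3 fell, against 7.42% of tested genes called lower, and TXNRD1 and SRXN1 rose, against 22% called higher. These shares count tested genes of every level. With the tests limited to genes with a mean of at least 5 TPM, 5 of the 8 fitted members were called, against 4049 of 10971 genes. They were GCLM, TXNRD1 and SRXN1, higher, and AKR1C2 and AKR1C3, lower, and SLC7A11 was not fitted. After the median scaling described below, 7 members were called, TXNRD1 higher and 6 lower, the others being GCLC, NQO1 and all AKR1C genes beside SLC7A11, against 28.1% of tested genes, 15.4% higher and 12.8% lower. In the A2ko library, SLC7A11 and AKR1B10 lay at least 1 log2 unit below Control, against 1.53% of tested genes below and 3.54% above by that much, 5.07% in all. In A8ko, AKR1B10 and AKR1C3 did so, against 2.68% below and 2.05% above, 4.73% in all. No member was called over all knockouts, where 1.03% of tested genes were, 0.509% higher and 0.52% lower. At an unadjusted p under 0.05, 5 members passed that limma test, GCLC, GCLM, SLC7A11, AKR1C2 and AKR1C3, against 16% of tested genes. The members' median log2 difference was -0.25 for A2ko, -0.32 for A8ko and -0.12 for C9ko, and the medians of all tested genes were 0.12, 0.09 and 0.11.

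**Figure D1:**
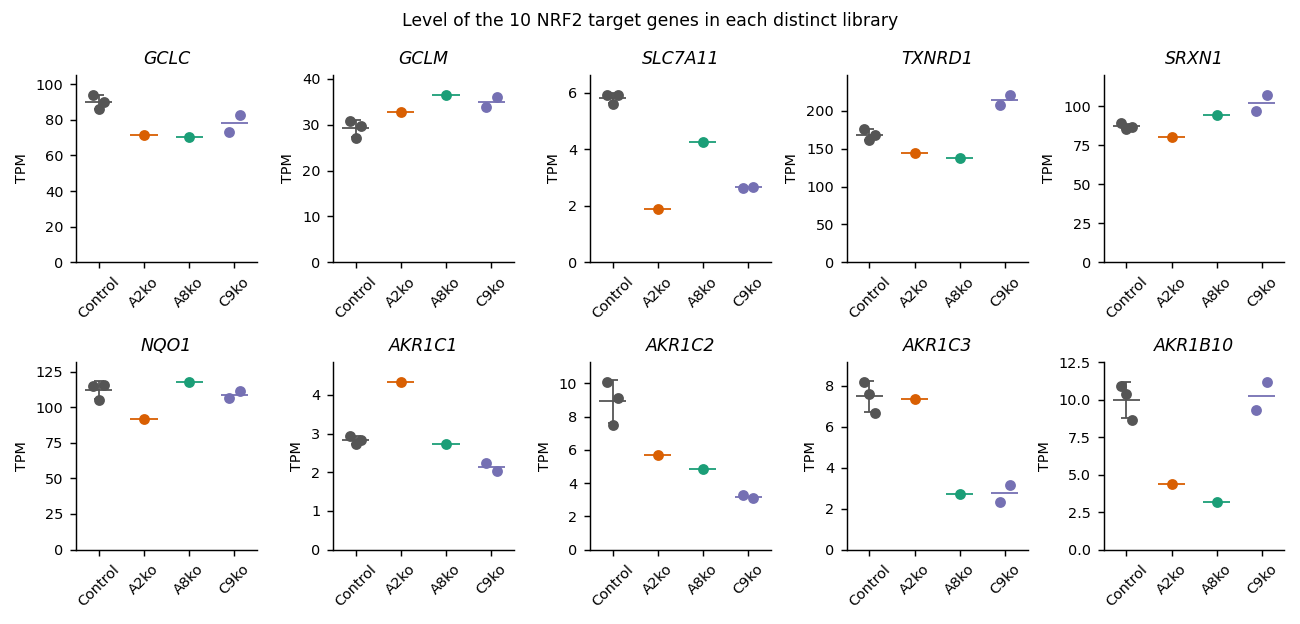
TPM of each member (vertical axis, from 0) in the distinct libraries of each group; points are libraries, horizontal lines are group means and the bar on Control is ± 1 SD (n = 3). SLC7A11, AKR1C2 and GCLC lie below every Control library in all 4 knockout libraries and GCLM lies above, while AKR1B10 is low in A2ko and A8ko and at the Control level in C9ko.

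Since TPM are shares, the middle of the distribution was examined too. Scaling the libraries by the median of ratios moved the median difference of all genes in C9ko from 0.11 to -0.01 and that over all knockouts from 0.11 to 0.00. Among genes called in C9ko, 3770 of 5038 were higher on the deposited scale and 2626 of 4813 after scaling. Directions of the members given below held on both scales unless stated.

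Glutathione synthesis begins with glutamate-cysteine ligase, a dimer of the catalytic subunit GCLC and the modifier subunit GCLM, which raises its activity. GCLC (ENSG00000001084, chromosome 6, positions 53497341 to 53616970 on GRCh38) was at 94.1, 86.3 and 90.0 TPM in the Control libraries, against 71.6 for A2ko, 70.5 for A8ko, and 73.3 and 82.6 for C9ko. Every knockout library was below every Control library. The log2 difference was -0.33 in A2ko and -0.35 in A8ko. In C9ko it was -0.21 (SE 0.08, limma adjusted p = 0.0820), and over all knockouts -0.29 (SE 0.09, limma adjusted p = 0.180), so neither test passed. After median scaling the C9ko difference was -0.34 and passed (limma adjusted p = 0.0055). An antisense RNA on the other strand, GCLC-AS1, was at 2.70 to 3.03 TPM in Control and 1.02 to 2.09 in the knockouts; the use of strand in counting is not given in the sources used here.

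GCLM (ENSG00000023909, chromosome 1, 93885205 to 93909456) differed in the opposite direction. It was at 30.9, 27.2 and 29.7 TPM in Control, against 32.9 for A2ko, 36.6 for A8ko, and 33.9 and 36.0 for C9ko, so that all 4 knockout libraries were above the 3 Control libraries. The differences of 0.16 in A2ko, 0.31 in A8ko and 0.25 in C9ko (SE 0.08, limma adjusted p = 0.0505) were small, and the last missed the threshold narrowly. Median scaling lowered the C9ko value to 0.12 (limma adjusted p = 0.155) and the A2ko value to 0.04.

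The ratio of the 2 subunits within a library does not depend on scaling. The modifier to catalytic ratio in TPM was 0.328, 0.315 and 0.331 in Control (mean 0.325 ± 0.00825, SD, n = 3), against 0.459 for A2ko, 0.519 for A8ko, and 0.463 and 0.436 for C9ko. The lowest knockout library was above the highest Control library. An exact two-sided permutation test of the 3 knockout group values against the 3 Control libraries gave p = 0.1, the smallest value its 20 splits allow. This ratio and those of AKR1C2 to AKR1C1 and SLC7A11 to SLC3A2 were chosen after the values had been seen. Groups of 3 values that do not overlap always give p = 0.1 in this permutation test, so it adds nothing to the lack of overlap.

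**Figure D2:**
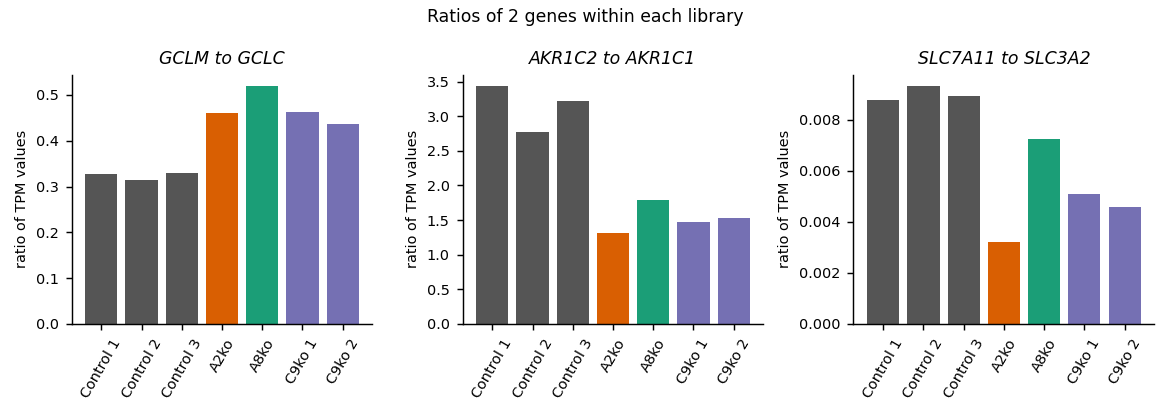
Ratio of the TPM of 2 genes (vertical axis, from 0, no unit) in each of the 7 distinct libraries; each bar is 1 library. GCLM to GCLC is higher in the 4 knockout libraries than in Control, and AKR1C2 to AKR1C1 and SLC7A11 to SLC3A2 are lower.

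SLC7A11, also called xCT, imports the cystine from which glutathione is made, in exchange for glutamate. SLC7A11 (ENSG00000151012, chromosome 4, 138164097 to 138242349) was at 5.91, 5.61 and 5.93 TPM in Control, against 1.90 for A2ko, 4.25 for A8ko, and 2.64 and 2.66 for C9ko. Every knockout library was below Control, A2ko furthest and A8ko least. In C9ko it fell by 0.90 on the log2 scale (SE 0.10, limma adjusted p = 0.000725), and the C9ko mean was 0.456 of the Control mean. The difference was -1.23 in A2ko and -0.38 in A8ko. Over all knockouts it was -0.84 (SE 0.22, limma adjusted p = 0.154) and did not pass.

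SLC3A2, the heavy chain that carries SLC7A11 to the membrane, differed by -0.12 in A2ko, -0.14 in A8ko and -0.23 in C9ko on the log2 scale. The TPM ratio of SLC7A11 to SLC3A2 was 0.00877, 0.00930 and 0.00892 in Control, against 0.00319 for A2ko, 0.00724 for A8ko, and 0.00509 and 0.00457 for C9ko. The groups did not overlap, which by itself sets the exact two-sided permutation p at its smallest value, 0.1. The antisense gene SLC7A11-AS1 was at or near 0 in all libraries.

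TXNRD1 is the cytosolic thioredoxin reductase, a selenoprotein that returns oxidised thioredoxin to its active form. TXNRD1 (ENSG00000198431, chromosome 12, 104215779 to 104350305) was among the higher members, at 176, 162 and 168 TPM in Control, against 144 for A2ko, 138 for A8ko, and 207 and 221 for C9ko. The C9ko libraries were above all Control libraries, whereas A2ko and A8ko were below them. In C9ko it rose by 0.35 on the log2 scale (SE 0.07, limma adjusted p = 0.00912), and by 0.21 after median scaling (limma adjusted p = 0.0171). Without the second C9ko library the value was 0.30 and did not pass (limma adjusted p = 0.0637). The differences in A2ko and A8ko were -0.22 and -0.28, and the value over all knockouts was -0.05. The pseudogene RPL18AP3, on the same strand within the TXNRD1 gene, was at 137.7 to 176.5 TPM in Control and 126.8 to 132.7 in the knockouts, and lay below the Control range in both C9ko libraries.

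SRXN1 encodes sulfiredoxin, which repairs peroxiredoxins whose cysteine has been over-oxidised. SRXN1 (ENSG00000271303, chromosome 20, 646615 to 653370) was at 89.1, 85.5 and 86.6 TPM in Control, against 80.3 for A2ko, 94.6 for A8ko, and 96.7 and 107 for C9ko. A8ko and C9ko were above the Control range and A2ko was below it. The rise of 0.23 in C9ko (SE 0.07, limma adjusted p = 0.0470) lay just inside the threshold. It lost its call in 9 of 14 alternatives, among them median scaling (0.09, limma adjusted p = 0.207), each Control library left out (adjusted p = 0.0768 to 0.111) and the second C9ko library left out (0.15, adjusted p = 0.262).

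TXNRD1 and SRXN1 lie in stretches of the genome where most tested genes were higher in C9ko. Within 2 Mb on either side of TXNRD1, 15 of 22 other tested genes were called, all 15 higher, with a median difference of 0.58, and 17 of the 22 were at or above TXNRD1 itself. Around SRXN1, 16 of 25 were called, 15 of them higher, with a median of 0.41, and 19 were at or above SRXN1. In A2ko and A8ko the medians of the same genes were 0.10 and 0.15 around TXNRD1 and 0.16 and -0.02 around SRXN1. The members that fell in C9ko lay below their surroundings. Around SLC7A11, 1 of 10 genes was called, with a median of 0.09, and all 10 were above SLC7A11. Around the AKR1C genes, 6 of 25 were called, with a median of 0.15, and all 25 were above AKR1C2 and AKR1C3. The part of the surroundings in the results of TXNRD1 and SRXN1 was not tested.

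**Figure D3:**
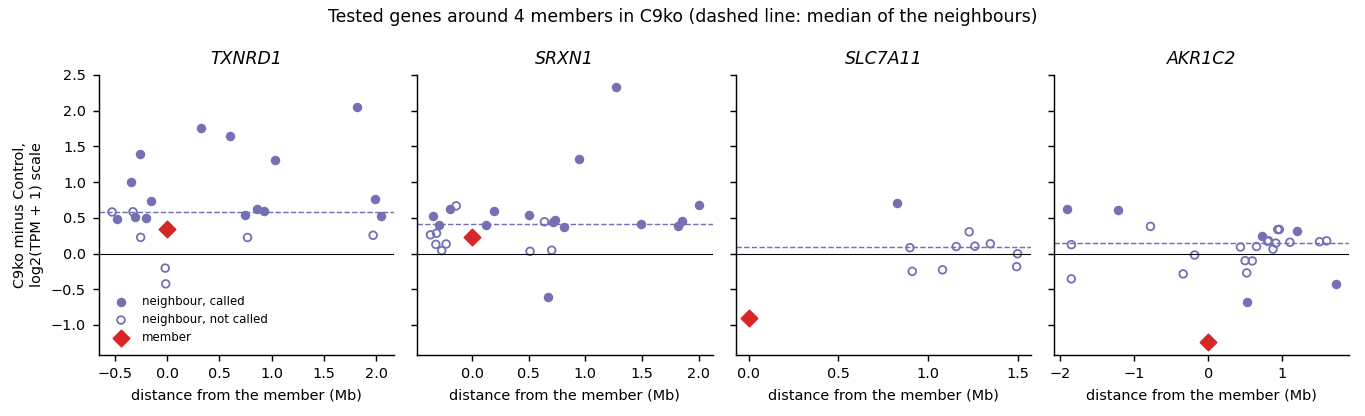
Difference of C9ko from Control on the log2(TPM + 1) scale (vertical axis) for tested genes within 2 Mb of 4 members, against distance in Mb (horizontal axis); filled circles were called, open circles were not, the diamond is the member and the dashed line is the median of the neighbours. TXNRD1 and SRXN1 lie below medians of 0.58 and 0.41, whereas SLC7A11 and AKR1C2 lie below every neighbour.

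NQO1 reduces quinones by transferring a pair of electrons and is the member most often measured as an NRF2 readout. NQO1 (ENSG00000181019, chromosome 16, 69706996 to 69726951) was at 115, 105 and 116 TPM in Control, against 92.1 for A2ko, 118 for A8ko, and 107 and 111 for C9ko. Both C9ko libraries lay within the Control range, A8ko lay just above it and A2ko below it. The difference in C9ko was -0.04 (SE 0.07, limma adjusted p = 0.695), and after median scaling -0.17 (limma adjusted p = 0.0402). The A8ko value of 0.07 turned to -0.03 with that scaling.

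The aldo-keto reductases reduce aldehydes and ketones with NADPH, and the AKR1C enzymes also convert steroid hormones and prostaglandins. AKR1C1, AKR1C2 and AKR1C3 lie side by side on chromosome 10, and their coding sequences are so alike that reads can be shared between them. In the GENCODE 29 transcripts the coding sequences have 972 bases each. AKR1C1 and AKR1C2 are identical at 98.05% of positions, and 51.79% of the 50-base windows of AKR1C1 also occur in AKR1C2. AKR1C3 is identical to AKR1C1 at 91.87% and to AKR1C2 at 91.26% of positions. Reads from windows that are not shared can be told apart, and untranslated regions were not compared. The 60-base stretch in which AKR1C1 and AKR1C2 differ most, coding bases 103 to 162, is shown as an example. Capitals mark the 15 positions at which the 3 genes are not all alike, and AKR1C1 and AKR1C2 differ at 10 of them.
AKR1C1: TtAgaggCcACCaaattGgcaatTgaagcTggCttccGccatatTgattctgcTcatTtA
AKR1C2: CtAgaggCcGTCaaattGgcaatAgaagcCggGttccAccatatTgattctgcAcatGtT
AKR1C3: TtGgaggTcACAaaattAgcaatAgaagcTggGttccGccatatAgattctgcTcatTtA
How the quantification assigned shared reads is not given in the sources used here, so the split between these genes is uncertain.

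AKR1C1 (ENSG00000187134, 4963253 to 4983283) was the lowest member in the Control libraries, at 2.94, 2.72 and 2.84 TPM. Its level was 4.34 for A2ko, 2.72 for A8ko, and 2.24 and 2.02 for C9ko. A2ko was above and C9ko below the Control range, and A8ko was at its lower edge. The C9ko difference was -0.29 (SE 0.11, limma adjusted p = 0.0859), and -0.39 after median scaling (limma adjusted p = 0.0371). In A2ko the difference was 0.48.

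AKR1C2 (ENSG00000151632, 4987400 to 5018031), an enzyme that inactivates dihydrotestosterone, was at 10.1, 7.53 and 9.14 TPM in Control, against 5.70 for A2ko, 4.87 for A8ko, and 3.29 and 3.09 for C9ko. All knockout libraries were below Control, C9ko furthest. In C9ko it fell by 1.24 on the log2 scale (SE 0.13, limma adjusted p = 0.000662), the largest C9ko difference of any member, and the C9ko mean was 0.357 of the Control mean. The differences were -0.56 in A2ko and -0.75 in A8ko. Over all knockouts the value was -0.85 (SE 0.20, limma adjusted p = 0.126), and without A2ko it was -0.99 (limma adjusted p = 0.0229).

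AKR1C3 (ENSG00000196139, 5035354 to 5107686), which makes testosterone and a prostaglandin F isomer, was at 8.20, 7.58 and 6.68 TPM in Control, against 7.39 for A2ko, 2.71 for A8ko, and 2.32 and 3.17 for C9ko. A2ko was within the Control range, and A8ko and C9ko were below it. In C9ko it fell by 1.19 (SE 0.14, limma adjusted p = 0.00101), and the A8ko difference was -1.19 too. The A2ko difference was -0.01. Over all knockouts the value was -0.80 (SE 0.32, limma adjusted p = 0.296), and without A2ko -1.19 (limma adjusted p = 0.00343).

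The sum of the 3 AKR1C genes, which does not depend on the split between them, was 21.2, 17.8 and 18.7 TPM in Control, against 17.4 for A2ko, 10.3 for A8ko, and 7.84 and 8.28 for C9ko. All knockout libraries were below Control, A2ko only just. The log2 difference from Control was -0.13 for A2ko, -0.84 for A8ko and -1.16 for C9ko. The ratio of AKR1C2 to AKR1C1, which does depend on the split, was 3.43, 2.77 and 3.22 in Control, against 1.31 for A2ko, 1.79 for A8ko, and 1.47 and 1.53 for C9ko. It was lower in every knockout library than in any Control library. That lack of overlap by itself sets the exact two-sided permutation p on group values at 0.1, the smallest possible.

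AKR1B10 (ENSG00000198074, chromosome 7, 134527592 to 134541408) reduces retinal and other aldehydes and is often raised in squamous carcinoma of the lung. It was at 10.9, 10.4 and 8.66 TPM in Control, against 4.37 for A2ko, 3.17 for A8ko, and 9.29 and 11.2 for C9ko. A2ko and A8ko were far below Control, whereas one C9ko library was within the Control range and the other above it. The differences were -1.03 in A2ko, -1.39 in A8ko and 0.03 in C9ko (SE 0.13, limma adjusted p = 0.865); with median scaling the last was -0.09. Without Control library 1 or 2 the A2ko difference was -0.97 or -0.997 and fell short of 1 log2 unit. The difference between the knockouts was not tested. AKR1B1, a relative that reduces glucose in the polyol pathway and lies close to AKR1B10, was at 130.6 ± 7.63 TPM in Control (SD, n = 3) and differed by 0.57 in A2ko and 0.86 in A8ko. In C9ko it rose by 0.85 (SE 0.07, limma adjusted p = 0.000249).

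**Figure D4:**
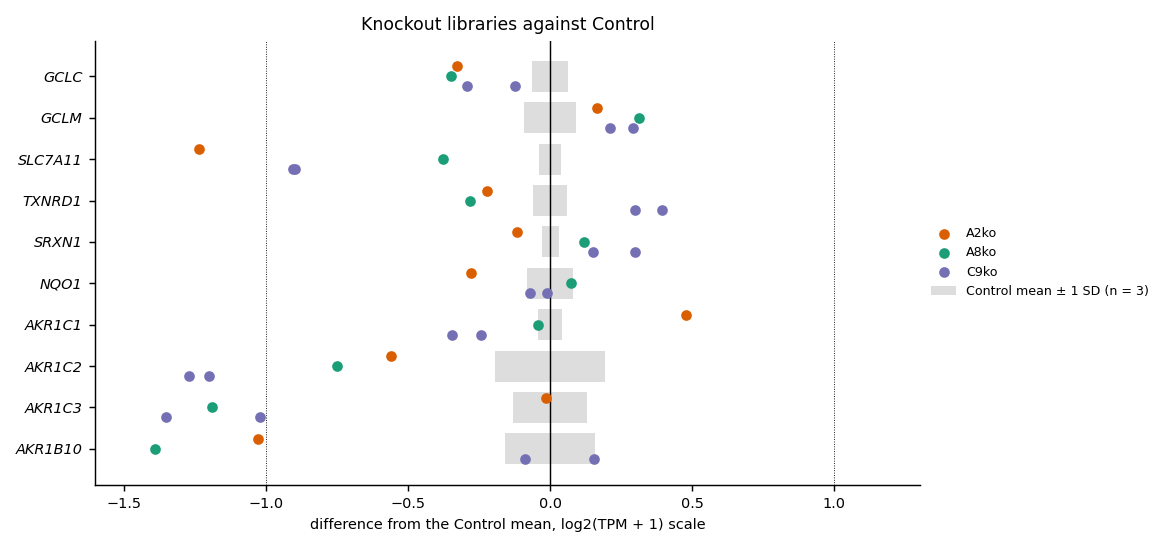
Difference of each knockout library from the Control mean on the log2(TPM + 1) scale (horizontal axis) for the 10 members; each point is 1 library, gray boxes are ± 1 SD of the 3 Control libraries and dotted lines mark 1 log2 unit. A2ko and A8ko pass -1 for AKR1B10, A2ko for SLC7A11, A8ko for AKR1C3, and both C9ko libraries for AKR1C2 and AKR1C3, whereas no point passes 1.

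The members did not form a common pattern over the 3 knockouts. GCLC, SLC7A11 and AKR1C2 lay below Control in all 4 knockout libraries and GCLM lay above, which is 4 of 10 members without overlap, against 21.6% of tested genes. Of the tested genes 4.61% lay wholly below and 17% wholly above. In 4 other members, NQO1, AKR1C1, TXNRD1 and SRXN1, 1 knockout group lay wholly above Control and another wholly below, as in 30.7% of tested genes. Over the 3 log2 differences, the Euclidean distance to the nearest other member was smallest for NQO1 and SRXN1, at 0.31, and for GCLM and SRXN1, at 0.34. AKR1C2 and AKR1C3 were each other's nearest member, at 0.70. AKR1B10 was the most isolated, with GCLC nearest at 1.28.

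Among the members, AKR1C2 had the largest difference over all knockouts on the log2(TPM + 1) scale, at -0.85 against -0.84 for SLC7A11, but at a pseudocount of 0.1 that of SLC7A11 was larger, at -1.04 against -0.97. The 5 tested genes nearest to AKR1C2 (with a mean of at least 5 TPM) were PIR at 0.18, RAB25 at 0.27, the mitochondrial tRNA MT-TS2 at 0.30, NMRAL2P at 0.31 and LINC02762 at 0.32. Distances were taken over 3 groups. PIR was on the list of other NRF2 targets.

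NRF2 itself and its regulators were examined from a list of 15 genes. In C9ko 4 were called (26.7% against 29.5% of all genes), 3 higher and 1 lower, against 22% and 7.42%. None was called over all knockouts, where 2 had an unadjusted limma p under 0.05 (16% of all genes did). NFE2L2 mRNA was at 116.7 ± 5.28 TPM in Control (SD, n = 3), against 96.1 for A2ko, 104 for A8ko, and 128 and 105 for C9ko. The C9ko difference was -0.01 (SE 0.10, limma adjusted p = 0.963), with 1 library above and 1 below the Control range. KEAP1 was at 50.4, 49.1 and 58.3 TPM in Control and at 43.1 to 48.3 in the knockouts, all below Control, but its differences of -0.15 in C9ko (limma adjusted p = 0.232) and -0.22 over all knockouts (limma adjusted p = 0.334) did not pass. BACH1 differed by 0.02, 0.33 and 0.19 in A2ko, A8ko and C9ko (limma adjusted p in C9ko = 0.140).

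Among the small MAF partners, MAFF rose in C9ko by 0.89 (SE 0.09, limma adjusted p = 0.000509), was 0.88 higher in A8ko and differed by -0.70 in A2ko. MAFG and MAFK differed by 0.13 and 0.27 in C9ko and did not pass (limma adjusted p = 0.192 and 0.0751), and by 0.52 and 0.53 in A8ko. NFE2L3, a relative of NRF2, was at 27.6 ± 1.40 TPM in Control (SD, n = 3), against 41.0 for A2ko, 66.3 for A8ko, and 72.4 and 76.6 for C9ko. It rose in C9ko by 1.40 (SE 0.07, limma adjusted p = 3.7e-05). GSK3B, a kinase that marks NRF2 for degradation apart from KEAP1, rose in C9ko by 0.58 (SE 0.07, limma adjusted p = 0.00142).

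Of 30 other NRF2 targets, 28 were tested, and 18 of them were called in C9ko (64.3% against 29.5%). Of these, 3 were higher and 15 lower, against 22% and 7.42% of all tested genes. With median scaling 20 were called, again 3 higher, and 17 lower, against 28.1% of all tested genes, 15.4% higher and 12.8% lower. The 29.5% used here and for the lists below counts tested genes of every level. With the tests limited to genes with a mean of at least 5 TPM, 19 of the 28 were called, against 4049 of 10971 genes. The median difference of the list was -0.27 in C9ko on the deposited scale. GPX2, an epithelial glutathione peroxidase, was at 28.9, 31.6 and 37.0 TPM in Control, against 16.5 for A2ko, 10.9 for A8ko, and 4.37 and 3.43 for C9ko. Every knockout library was below Control, and in C9ko GPX2 fell by 2.77 (SE 0.13, limma adjusted p = 3.3e-05). PIR, an iron-binding nuclear protein, was at 59.2, 55.4 and 55.5 TPM in Control, against 40.6 for A2ko, 34.8 for A8ko, and 20.3 and 22.0 for C9ko, where it fell by 1.38 (SE 0.07, limma adjusted p = 3.8e-05). GSTM3, a glutathione transferase, fell by 0.73 in C9ko (SE 0.14, limma adjusted p = 0.0101) but was 0.96 higher in A2ko. The 3 that rose in C9ko were ABCC3, TKT and HMOX1. This list and those below overlap, so a called gene can count more than once. GSR, GPX2 and GSTM3 are also among the glutathione enzymes, TXN and PRDX1 in the thioredoxin system and ALDH3A1 among the aryl hydrocarbon receptor targets. The ATF4 targets share CHAC1 and SLC3A2 with the glutathione enzymes and SESN2 with the thioredoxin system.

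Over all knockouts, 3 of the 28 were called (10.7% against 1.03%). ALDH3A1, which oxidises aldehydes and is also a target of the aryl hydrocarbon receptor, fell by 1.34 (SE 0.14, limma adjusted p = 0.0148), and its level was 70.1 ± 7.01 TPM in Control (SD, n = 3), against 26.8 for A2ko, 22.9 for A8ko, and 30.4 and 33.0 for C9ko. SLC48A1, a haem transporter, fell by 0.80 (SE 0.10, limma adjusted p = 0.0234). ABCC3, an efflux pump for glutathione and glucuronide conjugates, rose by 1.34 (SE 0.17, limma adjusted p = 0.0260), and its level was 9.36 ± 0.0238 TPM in Control (SD, n = 3), against 19.1 for A2ko, 28.2 for A8ko, and 30.5 and 28.6 for C9ko. With any 1 Control library left out, none of the 28 was called. Calls over all tested genes then went from 176 to 11, 5 and 5 without Control library 1, 2 and 3. Without A2ko, 8 of the 28 were called, against 2002 of 16760 tested genes.

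HMOX1, the haem-degrading enzyme, was at 7.14 ± 0.0850 TPM in Control (SD, n = 3), against 20.8 for A2ko, 13.4 for A8ko, and 12.1 and 11.1 for C9ko. It was above Control in all knockout libraries and rose in C9ko by 0.62 (SE 0.08, limma adjusted p = 0.00137). FTL, the ferritin light chain, was at 1263, 1195 and 2080 TPM in Control and 3147 in A8ko, a difference of 1.10. TKT, of the pentose phosphate pathway, rose in C9ko by 0.64 (SE 0.07, limma adjusted p = 0.000828), and differed by -0.16 in A2ko and -0.17 in A8ko. TKT lies on chromosome 3, where 41 of 49 tested genes within 2 Mb were called, all higher, with a median of 0.89.

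**Figure D5:**
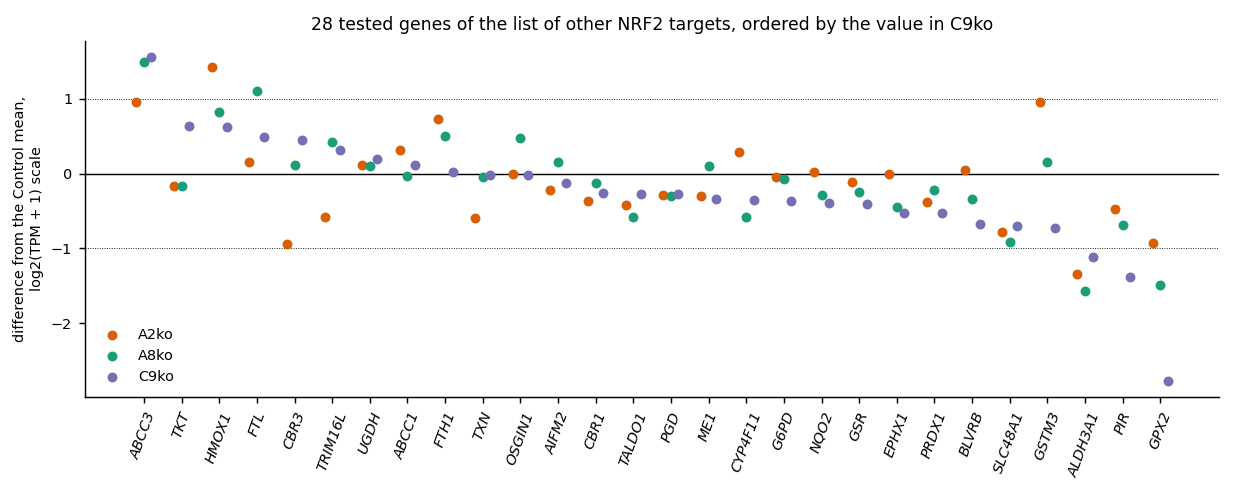
Difference from the Control mean on the log2(TPM + 1) scale (vertical axis) for the 28 tested genes of the list of other NRF2 targets, ordered along the horizontal axis by the value in C9ko; points are the A2ko and A8ko libraries and the mean of the C9ko libraries. ABCC3 and HMOX1 lie above 0 and ALDH3A1, PIR, GPX2 and SLC48A1 below 0 in all 3 groups, whereas GSTM3 is high in A2ko and low in C9ko.

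Among 28 tested glutathione enzymes, 16 were called in C9ko (57.1% against 29.5%), 5 higher and 11 lower, against 22% and 7.42% of all tested genes. With median scaling 3 were called higher and 12 lower, against 15.4% and 12.8%. None was called over all knockouts by limma, where 5 had an unadjusted p under 0.05, against 16% of all genes. CHAC1, which degrades glutathione, was at 9.55 ± 1.16 TPM in Control (SD, n = 3), against 1.90 for A2ko, 4.53 for A8ko, and 2.62 and 3.06 for C9ko. In C9ko it fell by 1.46 (SE 0.12, limma adjusted p = 0.00028), and its value over all knockouts was -1.41 (limma adjusted p = 0.0562). The near-identical transferases GSTM1 and GSTM2 differed by -1.33 and -1.29 in C9ko, both called (limma adjusted p = 3.5e-05 and 0.000121) but were 0.62 and 0.99 higher in A2ko; the split of reads between them is uncertain. GPX1, the main cytosolic glutathione peroxidase, rose in C9ko by 1.01 (SE 0.08, limma adjusted p = 0.000228), in a stretch of chromosome 3 where 71 of 79 neighbours were called higher. GGT1, which breaks down glutathione outside the cell, differed by -1.35 in A8ko, while GPX7 and GSTT2B were 1.38 and 1.20 higher in A2ko.

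In the thioredoxin and peroxiredoxin system, 7 of 21 genes were called in C9ko (33.3% against 29.5%), 3 higher and 4 lower, against 22% and 7.42% of all tested genes. None was called over all knockouts by limma, where 6 had an unadjusted p under 0.05, against 16% of all genes. SOD2, the mitochondrial superoxide dismutase and a target of NF-kB as well, was at 81.2 ± 1.22 TPM in Control (SD, n = 3), against 131 for A2ko, 209 for A8ko, and 330.5 and 331.6 for C9ko. It rose in C9ko by 2.01 (SE 0.06, limma adjusted p = 7.1e-06). PRDX1, a substrate of SRXN1, was at 1329 ± 90.4 TPM in Control (SD, n = 3) and fell by 0.52 in C9ko (SE 0.08, limma adjusted p = 0.00362), and PRDX5 fell by 0.63 (SE 0.07, limma adjusted p = 0.000748). SESN3, a sestrin, was at 5.56 ± 0.0826 TPM in Control (SD, n = 3) and 5.09 in A2ko, but near 0 in the other knockouts, with 0.109 for A8ko and 0.0715 and 0.0816 for C9ko. In C9ko it fell by 2.61 (SE 0.12, limma adjusted p = 2.6e-05). With median scaling 9 of the 21 were called, 1 higher and 8 lower, against 28.1% of all tested genes, 15.4% higher and 12.8% lower.

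Of 10 other aldo-keto reductases, 6 were tested, and 1 was called over all knockouts, against 1.03% of all tested genes, 0.509% higher. This was AKR1B1, with a rise of 0.76 (SE 0.11, limma adjusted p = 0.0363). It lost that call in 8 of 16 alternatives, while the difference stayed between 0.64 and 0.86. Among them were median scaling (0.64, adjusted p = 0.0608) and each Control library left out (adjusted p = 0.188 to 0.236). With Control library 1, 2 or 3 left out, calls over all tested genes went from 176 to 11, 5 and 5. In C9ko 2 were called (33.3% against 29.5%), AKR1B1 higher and AKR1A1 lower.

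SLC7A11 is also a target of ATF4, the factor of the amino acid response, and members of that list are given beside it. Of 25 tested ATF4 targets, 12 were called in C9ko (48% against 29.5%), 3 higher and 9 lower, against 22% and 7.42% of all tested genes. With median scaling 2 were called higher and 14 lower, against 15.4% and 12.8%. None was called over all knockouts by limma, where 5 had an unadjusted p under 0.05, against 16% of all genes. In A2ko, 5 lay at least 1 log2 unit below Control, against 1.53% of all genes. ASNS, asparagine synthetase, was at 64.0 ± 2.80 TPM in Control (SD, n = 3), against 31.8 for A2ko, 32.9 for A8ko, and 19.0 and 19.1 for C9ko. In C9ko it fell by 1.70 (SE 0.07, limma adjusted p = 1.8e-05). PHGDH, the first enzyme of serine synthesis, fell by 1.79 in C9ko (SE 0.12, limma adjusted p = 0.000127), and DDIT4 by 0.74 (SE 0.08, limma adjusted p = 0.000859). VLDLR and CEBPB rose in C9ko by 0.94 and 0.86 (limma adjusted p = 0.000833 and 0.000688). ATF3 differed by -1.62 in A2ko and GDF15 by 1.78 in A8ko.

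Some NRF2 targets also answer to the aryl hydrocarbon receptor (AHR). Of 7 tested AHR targets, 5 were called in C9ko (71.4% against 29.5%), 2 higher and 3 lower, against 22% and 7.42% of all tested genes. Over all knockouts 2 were called, CYP1A1 and ALDH3A1 (28.6% against 1.03%). Without Control library 1, 2 or 3, the count over all knockouts was 1, 0 and 0, and that of all tested genes was 11, 5 and 5. CYP1A1, the AHR-induced cytochrome, was at 20.2 ± 1.02 TPM in Control (SD, n = 3), against 5.53 for A2ko, 4.68 for A8ko, and 5.47 and 5.85 for C9ko. Over all knockouts it fell by 1.76 (SE 0.12, limma adjusted p = 0.00355), with an adjusted p of 0.0479, 0.0611 and 0.0613 without Control library 1, 2 and 3. UGT1A6, a glucuronosyltransferase, fell by 1.65 in C9ko (SE 0.11, limma adjusted p = 0.000112), and SERPINB2 differed by -1.59 in A2ko and -1.34 in A8ko.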

How the data were processed

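The authors deposited 1 table of TPM values per sample, with 1 value per Ensembl gene identifier. The genome build was hg38, per the submitters' processing notes; the aligner, quantifier, annotation and use of strand are not given in the sources used here. In both A2ko files and in both A8ko files the column header was the same, which with the identical values led to 1 library per pair. Symbols were found for 61463 of 78894 identifiers, and positions came from GENCODE 29 on GRCh38 (57288 identifiers).

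Values were analysed as log2(TPM + 1), which understates changes of low genes. Genes with at least 1 TPM in at least 2 distinct libraries were fitted with limma 3.58.1 in R 4.3.3 (lmFit, eBayes with trend), and p-values were adjusted by Benjamini-Hochberg over all 17100 genes. The fits were also run on simulated data in which all knockout libraries shifted alike. Spread between knockouts was not simulated, so that run cannot show how the test over all knockouts behaves with it. Same-numbered Control and C9ko libraries did not deviate together (r = -0.04 over 2 pairs), so no block was used. Alternatives were other pseudocounts (0.1 and 5), filters and scalings, libraries left out, all files as separate libraries, eBayes without trend, a replicate block and, over all knockouts, the average within the fit of 4 groups.

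The members and lists were chosen with earlier results of these data known. All members were named; of the lists, up to 4 called genes per direction that differed by at least 0.5, up to 2 per direction in A2ko and A8ko, and NFE2L2, KEAP1, BACH1 and the small MAF genes. AKR1A1 was named after its values were seen. Of 2 identifiers for TRIM16L, the one placed by GENCODE was used.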

Additional observations from a re-analysis of the deposited data

Results flagged for a closer look

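In 4 members, every library of one knockout group lay above all Control libraries and every library of another lay below them, as in 30.7% of all tested genes; with single libraries in A2ko and A8ko, this contrast of knockouts was not tested. TXNRD1 was above Control in C9ko and below it in A2ko and A8ko, and its C9ko and A8ko differences lay 0.63 apart on the log2 scale. AKR1C1 was above Control in A2ko and below it in C9ko, 0.77 apart. NQO1 was above Control in A8ko and below it in A2ko, 0.35 apart. SRXN1 was above Control in A8ko and C9ko and below it in A2ko, 0.34 apart.

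With median scaling the differences in A2ko, A8ko and C9ko were -0.35, -0.38 and 0.21 for TXNRD1 and 0.38, -0.12 and -0.39 for AKR1C1, so that their directions held. They were -0.41, -0.03 and -0.17 for NQO1, whose value in A8ko turned negative, and -0.24, 0.02 and 0.09 for SRXN1.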

How the results depend on the processing

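AKR1C2 and AKR1C3 stayed called and lower in C9ko in all 14 alternatives, and SLC7A11 in the 13 in which it could be fitted. The number of members called in C9ko was 5, and 4 with any 1 Control library left out. Without Control library 1, 2 and 3, 4204 of 16956, 3856 of 16935 and 3910 of 16932 tested genes were called. Without C9ko library 2, the differences of TXNRD1 and SRXN1 shrank to 0.30 and 0.15. The number of members called was 8 with all 9 files as separate libraries. It was 3 with a replicate block, in which TXNRD1 (limma adjusted p = 0.0915) and SRXN1 (0.238) were lost. Entering all 9 files counts the identical A2ko pair and the identical A8ko pair as separate libraries, which understates the spread between libraries. That fit called 8166 of 17100 tested genes, against 5038 with each pair counted once and 3248 with the replicate block. Same-numbered libraries share only a number here. No paired analysis was possible for all knockouts, because group means carry no number. Over all knockouts, 0 members became 2 without A2ko (AKR1C2 and AKR1C3), where 2002 of 16760 tested genes were called. With the knockout average in the fit of 4 groups they became 6, where 4361 of 17100 tested genes were called. That fit takes its error from the spread within groups and leaves out the spread between knockouts.

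Of the 2 members counted in A2ko, 0 remained at a pseudocount of 5, where 248 of 17100 tested genes were counted instead of 867. With a mean of at least 5 TPM 1 remained, where SLC7A11 was not fitted and 380 of 10971 genes were counted. With Control library 1, 2 or 3 left out 1 to 2 remained, and 886 of 16956, 890 of 16935 and 898 of 16932 genes were counted. Of the 2 in A8ko, 0 remained at a pseudocount of 5, where 269 of 17100 tested genes were counted instead of 809. Of other NRF2 targets, 18 of 28 were called in C9ko, against 5038 of 17100 tested genes. With no filter on low values 10 of 30 were, against 3511 of 42643 tested genes. Over all knockouts the count of 3 became 0 with no filter, 0 in each fit with a Control library left out, 8 without A2ko and 13 with the average in the fit of 4 groups. Over all tested genes, calls across all knockouts numbered 176, and 11, 5 and 5 without Control library 1, 2 and 3. They numbered 23 of 42643 with no filter, 2002 of 16760 without A2ko and 4361 of 17100 with the average in the fit of 4 groups.

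Values that changed sign were near 0. AKR1B10 in C9ko (0.033) was -0.0878 with median scaling, -0.0597 without mitochondrial genes, -0.0567 with the replicate block and -0.0894 to 0.1555 with 1 library left out, turning negative without Control library 3 or C9ko library 2. Over all knockouts, NQO1 was 0.0169 without A2ko, AKR1C1 -0.0431 with median scaling and -0.1686 without A2ko, TXNRD1 0.031 without A2ko and 0.0619 without A8ko, SRXN1 -0.0439 with median scaling, and MAFG -0.0221 without A8ko. NFE2L2 in C9ko ranged from -0.1516 to 0.1377 with 1 library left out, turning positive without Control library 1 or C9ko library 2. The causes were not tested. The unknown depth limits what can be said of low members such as AKR1C1.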
